A study of Mus musculus with 5 samples.

Results

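The galectin family was represented by 7 of the 31053 genes measured, chosen by symbol: Lgals1, Lgals3, Lgals4, Lgals7, Lgals8, Lgals9 and Lgals3bp. The set was chosen after the levels of these genes in B20-4.1.1 and isotype tumors had already been seen, so every difference between the treatments given for these members is a description with no test. The tumors were mammary tumors of MMTV-PyMT mice (FVB/N background, transgene line 634Mul), in which a mouse mammary tumor virus promoter drives the polyoma middle T oncogene, and both groups carried this transgene. From 7 weeks of age the mice received 5 mg/kg intraperitoneally, 2 doses per week for 6 weeks, of isotype IgG2a or of B20-4.1.1, which neutralizes the angiogenic factor VEGF-A. Viable cells of 3 tumors were labelled with multiplexing oligonucleotides, pooled and sequenced as single cells in droplets. The 6 isotype tumors came from 2 pools and the 9 B20-4.1.1 tumors from 3. Per the labels each oligonucleotide set marked 1 mouse, and tumors served as replicates. Since no pool mixed treatments, a difference between treatments cannot be told apart from one between pools.

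Galectins are lectins that bind beta-galactoside sugars on glycoproteins and glycolipids. They reach the outside of the cell without a signal peptide and can cross-link receptors at the surface, and some also act inside the cell on damaged membranes. Lgals1 encodes galectin-1, a small lectin that forms dimers and is known for effects on T cells and vessels, and Lgals3 encodes galectin-3, which joins a sugar-binding domain to a long tail and is a well-known product of macrophages. Lgals4, Lgals8 and Lgals9 encode tandem-repeat galectins, of which galectin-8 recognizes damaged vesicles and galectin-9 is known as a binding partner of the receptor TIM-3. Lgals7 encodes a galectin of stratified epithelium. Lgals3bp encodes a secreted scavenger-receptor protein that galectin-3 binds and that is not itself a galectin.

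In the GRCm38 annotation (the labels give mm10, the same assembly) the 7 genes lay on 5 chromosomes. Lgals3 (ENSMUSG00000050335) was at chr14:47373860-47386167, Lgals9 (ENSMUSG00000001123) at chr11:78962979-78984924 and Lgals3bp (ENSMUSG00000033880) at chr11:118392747-118401959. Lgals1 (ENSMUSG00000068220) was at chr15:78926725-78930465 and Lgals8 (ENSMUSG00000057554) at chr13:12439402-12464977. Lgals4 (ENSMUSG00000053964, chr7:28833122-28841710) and Lgals7 (ENSMUSG00000053522, chr7:28863796-28866285) were neighbors. Lgals7 overlapped the antisense gene Gm10648 and Lgals8 overlapped Heatr1 on the other strand. Lgals4 has a near-identical copy, Lgals6, that was not in the list of measured genes, so its reads are uncertain.

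The upstream sequences of the 3 members whose levels separated cell states are shown here, because 2 of them moved together with interferon genes and the other with hypoxia genes in the comparisons that follow. Each is the 250 bases before the annotated start, from RefSeq promoters of GRCm38.p6, written 5′ to 3′ on the strand of the gene. RefSeq entries matched 6 of the 7 members. Capitals mark the match to a searched motif on either strand.
Lgals9, chr11:78984925-78985174, minus strand: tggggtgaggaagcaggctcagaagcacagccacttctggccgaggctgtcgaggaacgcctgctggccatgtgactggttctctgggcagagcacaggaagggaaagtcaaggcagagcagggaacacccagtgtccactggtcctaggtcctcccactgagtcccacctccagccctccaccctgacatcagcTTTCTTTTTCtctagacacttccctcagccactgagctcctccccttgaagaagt
Lgals3bp, chr11:118401960-118402209, minus strand: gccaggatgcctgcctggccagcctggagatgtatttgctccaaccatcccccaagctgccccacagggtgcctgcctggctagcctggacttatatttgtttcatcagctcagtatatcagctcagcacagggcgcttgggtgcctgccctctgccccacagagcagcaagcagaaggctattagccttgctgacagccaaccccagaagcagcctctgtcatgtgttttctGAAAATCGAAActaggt
Lgals3, chr14:47373610-47373859, plus strand: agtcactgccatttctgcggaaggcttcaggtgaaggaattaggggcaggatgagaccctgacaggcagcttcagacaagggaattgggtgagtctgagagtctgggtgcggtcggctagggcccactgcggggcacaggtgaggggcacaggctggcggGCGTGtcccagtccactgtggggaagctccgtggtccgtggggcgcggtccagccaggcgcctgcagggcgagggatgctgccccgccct

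The Lgals9 sequence held GAAA and GAAA with 2 bases of any kind between them, the core of the interferon-stimulated response element, on the opposite strand at bases -55 to -46 from the start. This motif occurred on either strand in 2.98% of 32851 promoters of the same length and in no other of the 6 members. The Lgals3bp sequence held the same half-sites with 3 bases between them at -17 to -7, a spacing searched after the sequence had been seen and found in 2.38% of promoters. The Lgals3 sequence held GCGTG, a core of the hypoxia response element, at -90 to -86, and Lgals4 held it at -19 to -15. GCGTG is common and occurred in 28.2% of promoters, while the other core, ACGTG, occurred in 16.6% and in 0 of the 6 members. All motifs were searched on both strands, and ACGTG overlaps the E-box CACGTG. A match describes the letters and is not evidence of a bound site. The 3 sequences were 58.4% (Lgals9), 55.6% (Lgals3bp) and 66.0% (Lgals3) G and C, against a median of 52.4% over all promoters.

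Of 30340 deposited cells, 19533 had at least 2500 UMIs (unique molecular identifiers, 1 per captured transcript), no more than the upper limit of the study's methods, and a mitochondrial share of 20% or less, with 511 to 2341 per tumor. Median UMIs per kept cell were 5363 to 8070 per pool, and pairs of pools shared 0 to 24 barcodes. Cells were assigned to a class by marker transcripts, none of them a galectin: 13104 were epithelial-like, 2621 T-like and 1536 macrophage-like. The median marker of the own list was detected in 94.7% of epithelial-like, 95.2% of T-like and 85.7% of macrophage-like cells. The gate required such markers, so these values are no check of the classes. The median marker of any other list was in at most 1.86%, 12.6% and 10.4% of these cells. Single markers of other lists reached 30.2% of epithelial-like (neutrophil list), 44.5% of T-like and 33.9% of macrophage-like cells (both B cell list). In 3 B20-4.1.1 tumors T-like cells made up 57.8%, 65.4% and 65.6% of kept cells, against at most 20.3% in the other 12, so values in T-like cells are also given without them. The isotype pools differed from each other, and where 1 of them decides a value this is stated beside it. Levels are UMIs of a gene per 10000 gene UMIs of the class in a tumor. The libraries count 1 end of each transcript, so levels of different genes were not divided by length.

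Of the 3 large classes, macrophage-like cells held the most Lgals1, Lgals3, Lgals9 and Lgals3bp, T-like cells were intermediate, and Lgals7 was an epithelial transcript. The level of Lgals3 in macrophage-like cells was 14.8 ± 4.69 UMIs per 10000 (SD, n = 15 tumors), against 7.25 ± 4.02 in T-like and 2.60 ± 1.37 in epithelial-like cells. The Lgals1 level was 13.4 ± 3.72 UMIs per 10000 in macrophage-like, 3.74 ± 2.06 in T-like and 1.80 ± 0.435 in epithelial-like cells. The macrophage-like level exceeded the epithelial-like level of the same tumor in 15 of 15 tumors for both genes. The plot of levels by class shows the same order for Lgals9 and Lgals3bp at lower levels.

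**Figure D1:**
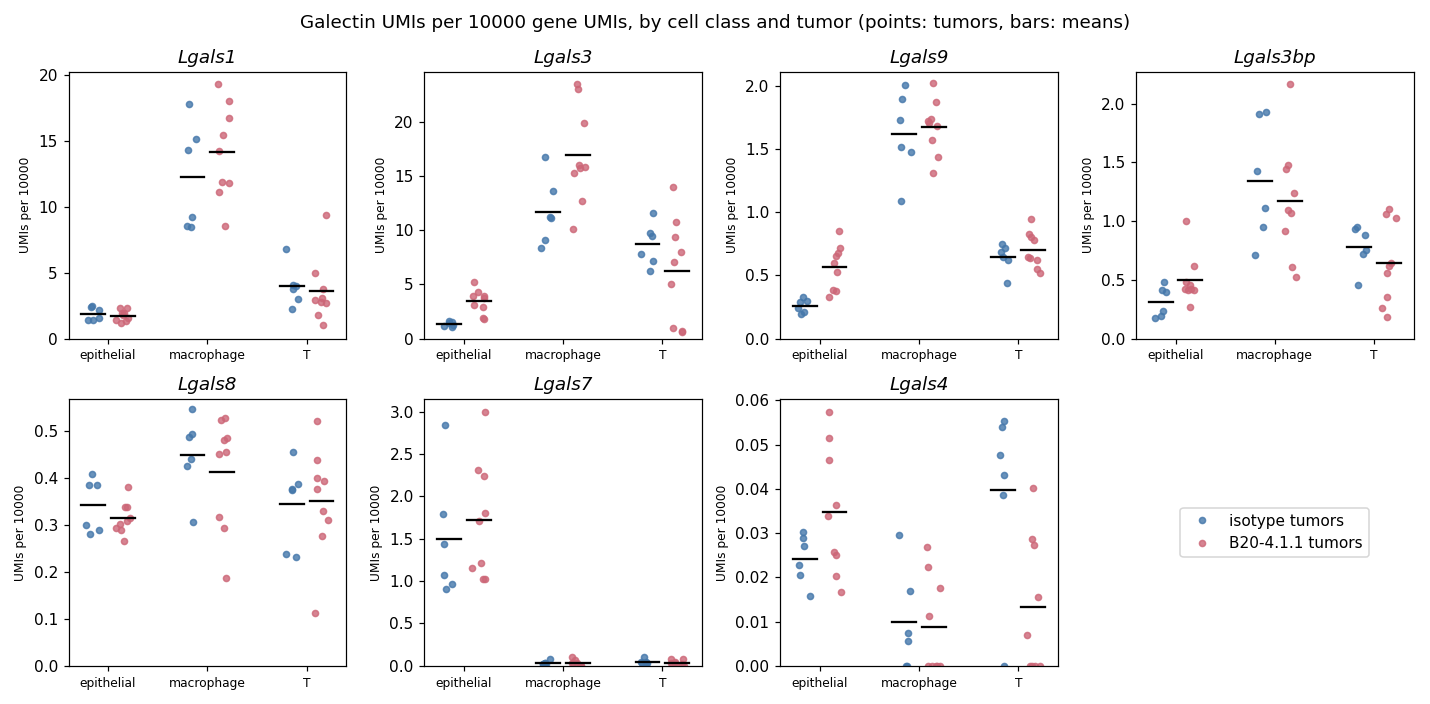
Level of each member in UMIs per 10000 gene UMIs (y axis, linear from 0) in epithelial-like, macrophage-like and T-like cells. Each point is 1 tumor (blue, 6 isotype; red, 9 B20-4.1.1) and bars are group means. Macrophage-like cells are highest for Lgals1, Lgals3, Lgals9 and Lgals3bp, Lgals7 is near 0 outside epithelial-like cells, and Lgals3 in T-like cells is near 0 in 3 B20-4.1.1 tumors.

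These class differences were tested within tumors, with the counts of each class summed per tumor and the tumor as a block (edgeR quasi-likelihood test, Benjamini-Hochberg over all genes tested). Between macrophage-like and epithelial-like cells all 6 members that passed the count filter differed, 5 of them higher and Lgals7 lower, beside 79.0% of all genes tested. The median log2 fold change of these 6 was 1.89, against -0.12 over all genes. Lgals1 was higher by a log2 fold change of 2.89 (SE 0.0906, adjusted p = 3.05e-17) and Lgals3 by 2.67 (SE 0.192, adjusted p = 2.91e-09). Both of the lesser expressed members also rose in 15 of 15 tumors, Lgals9 by a log2 fold change of 2.10 (SE 0.165, adjusted p = 4.94e-09) and Lgals3bp by 1.68 (SE 0.137, adjusted p = 1.32e-09). Lgals8 was the most even of the members that passed the filter, at 0.429 ± 0.105 UMIs per 10000 in macrophage-like and 0.326 ± 0.0449 in epithelial-like cells. It was higher in macrophage-like cells of 13 of 15 tumors (log2 fold change 0.43, SE 0.0915, adjusted p = 9.47e-05).

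T-like cells exceeded epithelial-like cells for 4 of the 6 members tested, and 5 of 6 differed beside 76.7% of all genes. The median log2 fold change was 0.79 over these members and -0.056 over all genes. Lgals1 was higher in 13 of 15 tumors (log2 fold change 0.99, SE 0.189, adjusted p = 0.000162), and Lgals9 and Lgals3bp were each higher in 12 of 15, by log2 fold changes of 0.83 (adjusted p = 0.000108) and 0.75 (adjusted p = 0.00544). The Lgals3bp call was lost with counts summed per pool (adjusted p = 0.0666). Lgals8 did not pass the test, at a level of 0.349 ± 0.103 UMIs per 10000 in T-like cells (log2 fold change 0.17, SE 0.124, adjusted p = 0.208). Lgals3 was higher in 12 of 15 tumors, with a log2 fold change of 1.40 (SE 0.509, adjusted p = 0.0213), but this call was lost in 5 of 12 alternatives, among them leaving out either isotype pool or the third B20-4.1.1 pool (adjusted p up to 0.154). Without the 3 tumors rich in T-like cells the log2 fold change was 2.00 for Lgals3, 0.99 for Lgals1, 0.86 for Lgals9, 1.01 for Lgals3bp and 0.11 for Lgals8, with 5 of 6 members passing as before.

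Macrophage-like cells exceeded T-like cells for 4 of 5 members tested, beside 69.2% of all genes called, with a median log2 fold change of 1.25 against -0.05 over all genes. Lgals1 was higher by a log2 fold change of 1.93 (adjusted p = 1.58e-06) and Lgals9 by 1.25 (adjusted p = 1.28e-11), each in 15 of 15 tumors. Lgals3bp was higher in 12 of 15 tumors by 0.90 on the log2 scale (adjusted p = 0.000254). Lgals3 was higher in 15 of 15 by 1.30 (SE 0.397, adjusted p = 0.00887), or 0.74 without the 3 tumors rich in T-like cells, where Lgals1 gave 1.81, Lgals9 1.34 and Lgals3bp 0.75. Lgals8 differed by a log2 fold change of 0.31 that did not pass the test (adjusted p = 0.0677), and it passed in 4 of 11 alternatives, among them without those 3 tumors (0.36). Across the 3 classes the order of levels for Lgals1, Lgals9 and Lgals3bp was therefore macrophage-like, T-like, epithelial-like, with every step past the test, while for Lgals8 neither step next to T-like cells passed it.

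Lgals7 was 1.64 ± 0.689 UMIs per 10000 in epithelial-like cells, with 30.8% of these cells holding a UMI at a median depth of 8999. It was 36.7-fold lower in T-like cells (log2 fold change -5.20, SE 0.158, adjusted p = 4.83e-20) and 41.3-fold lower in macrophage-like cells (log2 fold change -5.37, SE 0.143, adjusted p = 1.27e-24). After each cell was thinned to 2500 UMIs, 18.0% of epithelial-like cells held a Lgals7 UMI, against 0.916% of T-like cells (95% exact interval 0.588% to 1.36%, median depth before thinning 4044) and 1.11% of macrophage-like cells (0.646% to 1.77%, median depth 6318.5). These intervals cover counting error only. The median T-like and macrophage-like levels of Lgals7 were 2.74% and 2.32% of the epithelial-like level of the same tumor. The summed level of 7 other epithelial genes, among them the milk protein genes Csn3 and Wap, stood at 2.75% and 2.26% in the same cells, so the Lgals7 counts outside epithelial-like cells are read as background and not as expression.

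The remaining classes were too small for a test and are given as pooled levels. Fibroblast-like cells (59 cells) held the highest Lgals1 level, 25.3 UMIs per 10000, and all of them held a Lgals1 UMI. NK-like cells (73 cells) held 11.8 UMIs per 10000 of Lgals1 and 13.9 of Lgals3, close to the macrophage-like levels. Neutrophil-like cells (105 cells) held 4.81 UMIs per 10000 of Lgals3 but 0.205 of Lgals1, and B-like cells (180 cells) held 0.857 and 0.490. Lgals4 was rare everywhere, with 337 UMIs in all epithelial-like cells (0.0306 ± 0.0125 UMIs per 10000) and 13 in macrophage-like cells. Outside the 7 members, the galectin-related gene Lgalsl reached 0.850 UMIs per 10000 in epithelial-like cells and was detected in 43.7% of them, while Lgals2, Lgals12 and Grifin gave 85, 283 and 4 UMIs there.

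Within epithelial-like cells of 1 tumor the members differed in how unevenly cells held them. With cells thinned to 2500 UMIs, the median over tumors of the variance of counts over their mean, which is 1 for random counting, was 4.23 for Lgals3 and 3.20 for Lgals7. It was 1.63 for Lgals1, 1.42 for Lgals3bp, 1.21 for Lgals9 and 1.03 for Lgals8. This ratio rises with the mean, which was 0.677 UMIs per thinned cell for Lgals3, 0.366 for Lgals7, 0.411 for Lgals1, 0.112 for Lgals3bp and 0.0831 and 0.0828 for Lgals9 and Lgals8. The variance beyond random counting over the squared mean, which does not rise with the mean by construction, had medians of 6.28 for Lgals7, 4.66 for Lgals3, 4.02 for Lgals3bp, 1.90 for Lgals9 and 1.37 for Lgals1. For Lgals8 it was 0.384 with a range over tumors of -0.97 to 1.77, and at its low level an uneven spread was not detectable.

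Epithelial-like cells were next compared within tumors by state. Cells of a tumor were ranked by the share of their UMIs in a list of hypoxia, interferon, basal keratin or cycling genes, and the highest-ranked and lowest-ranked cells, 1 cell in 3 each (4362 cells on each side over 15 tumors), were summed and compared with the tumor as a block. No list held a galectin, the list genes were left out of the fit, and the contrast lies within treatments and pools. The plot of state contrasts shows 2 patterns: Lgals9 and Lgals3bp stood apart in interferon-high cells, and Lgals3 in hypoxia-high and basal keratin-high cells.

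**Figure D2:**
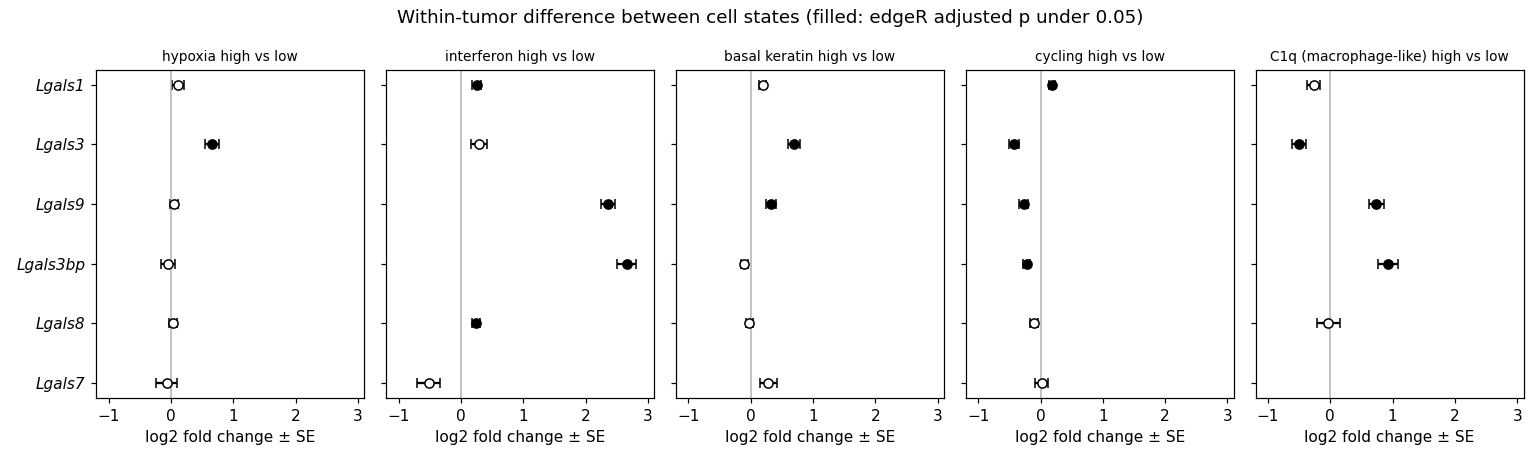
Log2 fold change (x axis, bars are ± 1 SE of the edgeR fit) of each member between state-high and state-low cells of the same tumors, 15 tumors for the 4 epithelial states and 10 for C1q in macrophage-like cells. Filled points passed the test; the largest values are Lgals3bp (2.66) and Lgals9 (2.36) in interferon-high cells.

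Interferon-high cells were sorted by 15 interferon-stimulated genes such as Isg15 and Ifit1, and Lgals9 and Lgals3bp rose with them in every tumor. Lgals9 was 0.347 to 1.69 UMIs per 10000 in interferon-high cells (median 0.796, mean 0.918 ± 0.458, n = 15 tumors) and 0.0908 to 0.290 in interferon-low cells (median 0.136, mean 0.165 ± 0.0573). Lgals3bp was 0.345 to 2.18 UMIs per 10000 in interferon-high cells (median 0.909) and 0.0362 to 0.207 in interferon-low cells (median 0.122). For both genes the lowest interferon-high tumor lay above the highest interferon-low tumor. The log2 fold change was 2.36 for Lgals9 (SE 0.114, adjusted p = 4.41e-11) and 2.66 for Lgals3bp (SE 0.153, adjusted p = 8.52e-09), and both passed in all 13 alternatives. Of 6 members tested 4 passed, beside 6.33% of all genes. The median log2 fold change was 0.27 over the members and -0.0099 over all genes.

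The other 2 members that passed changed little. Lgals8 rose by a log2 fold change of 0.24 (adjusted p = 0.0109, higher in 14 of 15 tumors) and Lgals1 by 0.25 (adjusted p = 0.0459, 12 of 15). The Lgals8 call was lost in 3 of 13 alternatives and its log2 fold change was as low as 0.012, and the Lgals1 call was lost in 6. Lgals7 was lower in interferon-high cells of 12 of 15 tumors, at 1.31 ± 0.654 against 2.09 ± 1.05 UMIs per 10000, without passing the test (log2 fold change -0.52, SE 0.185, adjusted p = 0.126), and it passed with DESeq2 and with no count filter. Lgals3 did not pass (log2 fold change 0.29, adjusted p = 0.237). The interferon difference of Lgals9 was present in both groups. In isotype tumors its mean level was 0.503 UMIs per 10000 in interferon-high and 0.130 in interferon-low cells, and in B20-4.1.1 tumors it was 1.20 and 0.188. For Lgals3bp the means were 0.663 and 0.134 in isotype tumors and 1.14 and 0.117 in B20-4.1.1 tumors. Median depth was 8453 UMIs in interferon-high and 7918.5 in interferon-low cells. The summed macrophage markers were at 0.269 and 0.236 UMIs per 10000 there, against 221.0 in C1q-high and 62.4 in C1q-low macrophage-like cells.

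Hypoxia-high cells were sorted by 17 genes that cells induce when oxygen is low, such as Car9, Vegfa and Slc2a1, and Lgals3 was the member that rose with them. Its level was 1.22 to 7.27 UMIs per 10000 in hypoxia-high cells (median 3.20, mean 3.52 ± 1.97) and 0.896 to 5.30 in hypoxia-low cells (median 1.49, mean 2.16 ± 1.28). Hypoxia-high cells were above hypoxia-low cells of their own tumor in 15 of 15 tumors, while the ranges over tumors overlapped. The log2 fold change was 0.65 (SE 0.111, adjusted p = 0.00038) and stayed between 0.54 and 0.79 over 13 alternatives, all past the test. In the isotype tumors the mean Lgals3 level was 1.58 and 1.19 UMIs per 10000 in hypoxia-high and hypoxia-low cells, and in the B20-4.1.1 tumors 4.81 and 2.80. It was the only 1 of 6 members tested that passed, beside 31.3% of all genes, and the median log2 fold change of the members was 0.038 against -0.0008 over all genes. Lgals1 (log2 fold change 0.11, adjusted p = 0.411), Lgals7 (-0.073, 0.785), Lgals8 (0.03, 0.757), Lgals9 (0.046, 0.616) and Lgals3bp (-0.046, 0.802) did not pass. Summed macrophage markers were at 0.285 UMIs per 10000 in hypoxia-high and 0.228 in hypoxia-low cells, and their part in the result was not tested.

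Basal keratin-high cells, sorted by Krt5, Krt14 and 5 related genes of the basal mammary layer and of stratified epithelium, also held more Lgals3. The level was 1.35 to 5.90 UMIs per 10000 in keratin-high cells (median 2.83) and 0.673 to 5.39 in keratin-low cells (median 1.54), higher in 15 of 15 tumors. The log2 fold change was 0.70 (SE 0.0948, adjusted p = 0.000242) and passed in all 13 alternatives. Lgals9 rose by a smaller log2 fold change of 0.32 (SE 0.0776, adjusted p = 0.0083, higher in 11 of 15), a call that was lost in 3 alternatives, among them without the third B20-4.1.1 pool. These 2 of 6 members stood beside 9.45% of all genes called, with a member median of 0.23 against -0.0018. Lgals7, the galectin of stratified epithelium, was at 1.88 ± 0.766 UMIs per 10000 in keratin-high and 1.58 ± 0.875 in keratin-low cells and did not pass (log2 fold change 0.28, SE 0.137, adjusted p = 0.257). All keratin-low cells had 0 UMIs of the list, and they were shallower (median 8684 against 9667.5 UMIs). The list stood at 0.89 to 5.5 UMIs per 10000 in keratin-high cells over tumors, so these too can include cells without a list UMI.

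Cycling-high cells were sorted by 12 mitotic genes such as Mki67 and Top2a. Here Lgals3 fell, from 2.96 ± 1.87 UMIs per 10000 in cycling-low to 2.11 ± 1.08 in cycling-high cells, and was lower in 14 of 15 tumors (log2 fold change -0.42, SE 0.0816, adjusted p = 0.00156). Lgals9 fell by 0.27 on the log2 scale (adjusted p = 0.00621) and Lgals3bp fell by 0.22 (adjusted p = 0.00451), each lower in 12 of 15 tumors. Lgals1 rose by 0.18 (adjusted p = 0.00524, 14 of 15). These 4 of 6 members stood beside 21.5% of all genes, with a member median log2 fold change of -0.16 against -0.013. All cycling-low cells had 0 UMIs of the list, and median depth was 10860 UMIs in cycling-high and 8271 in cycling-low cells. The list stood at 0.471 to 5.24 UMIs per 10000 in cycling-high cells over tumors, so the high side can also hold cells without a list UMI. When every cell was thinned to 2500 UMIs, only 1 member passed and it was Lgals7, while Lgals3 differed by a log2 fold change of -0.13. All 4 of the calls given here were thus lost. Thinning also ranked the cells again on fewer list UMIs, and the genes called fell from 2220 of 10314 to 106 of 7189. The loss therefore cannot tell an effect of depth from a weaker split.

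In macrophage-like cells the split was on C1qa, C1qb and C1qc, the complement genes of mature tissue macrophages, in those 10 tumors that held 60 or more macrophage-like cells (6 isotype, 4 B20-4.1.1, 451 cells on each side). These 3 genes were also among the 9 markers of the macrophage-like class, which at least 3 detected markers defined. Lgals9 and Lgals3bp were higher in C1q-high cells and Lgals3 was lower. Lgals9 was 1.31 to 2.61 UMIs per 10000 in C1q-high cells (median 1.89) and 0.650 to 1.47 in C1q-low cells (median 1.24), and rose in 10 of 10 tumors (log2 fold change 0.74, SE 0.125, adjusted p = 0.000143). Lgals3bp rose in 9 of 10, with medians of 1.28 and 0.959 UMIs per 10000 (log2 fold change 0.93, SE 0.161, adjusted p = 0.000194). Lgals3 went the other way in 9 of 10 tumors, from 10.3 to 25.1 UMIs per 10000 in C1q-low cells (median 16.7) to 6.84 to 16.6 in C1q-high cells (median 10.1). Its log2 fold change was -0.50 (SE 0.114, adjusted p = 0.00339), and without the second isotype pool it did not pass (adjusted p = 0.0618). Lgals1 was also lower in 9 of 10 tumors without passing (log2 fold change -0.27, adjusted p = 0.0522), and Lgals8 did not pass (-0.035, adjusted p = 0.94). These 3 of 5 members stood beside 17.3% of all genes called, with a member median of -0.035 against -0.0076. The summed macrophage markers were at 221.0 UMIs per 10000 in C1q-high and 62.4 in C1q-low cells, of which the C1q genes were 180.0 and 39.1. The 2 sides thus also differed in the markers of the class. The summed epithelial markers were at 1.21 UMIs per 10000 in C1q-high and 2.51 in C1q-low cells. The part of either marker list in the result was not tested. In the plot of paired levels Lgals9 therefore rises from C1q-low to C1q-high cells in every tumor, and Lgals3 falls in all but 1.

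**Figure D3:**
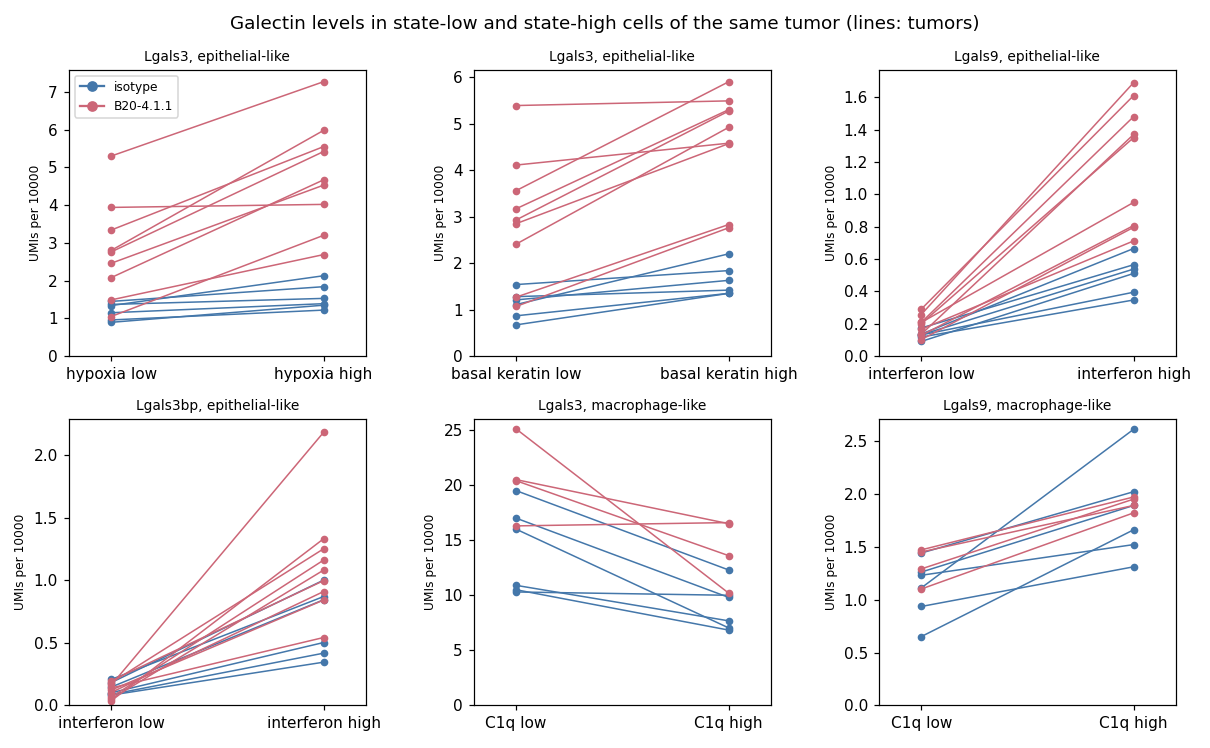
Level in UMIs per 10000 gene UMIs (y axis, linear from 0) in state-low and state-high cells, joined by a line for each tumor (blue isotype, red B20-4.1.1). Lgals3 rises with hypoxia and basal keratin genes in 15 of 15 tumors, Lgals9 and Lgals3bp rise with interferon genes in 15 of 15, and in macrophage-like cells Lgals3 is lower in C1q-high cells of 9 of 10 tumors while Lgals9 is higher in 10 of 10.

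The levels in the treatment groups were as follows in epithelial-like cells, where B20-4.1.1 tumors held more Lgals3 and Lgals9 than isotype tumors without overlap. The Lgals3 level in the 6 isotype tumors was 1.43, 1.66 and 1.57 in the first pool and 1.17, 1.22 and 1.03 in the second, in UMIs per 10000. In the B20-4.1.1 tumors it was 2.93, 3.09 and 1.86 in the first pool, 5.26, 3.97 and 3.92 in the second and 1.80, 3.71 and 4.31 in the third. The lowest B20-4.1.1 tumor thus stood just above the highest isotype tumor, and the B20-4.1.1 tumors spread over a wider range. The fitted log2 fold change of B20-4.1.1 over isotype was 1.42 (SE 0.192), and 1.24 to 1.59 over 13 alternatives. The Lgals9 level was 0.198 to 0.327 UMIs per 10000 in isotype tumors (median 0.267) and 0.331 to 0.854 in B20-4.1.1 tumors (median 0.602), a log2 fold change of 1.22 (SE 0.197). Its pool means were 0.305 and 0.216 for isotype and 0.364, 0.602 and 0.741 for B20-4.1.1, so the first B20-4.1.1 pool lay near the isotype tumors.

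Of the other members none separated the groups. Lgals3bp was 0.176 to 0.479 UMIs per 10000 in isotype and 0.265 to 1.00 in B20-4.1.1 tumors (log2 fold change 0.81, SE 0.277), and its log2 fold change ranged from 0.45 without the second isotype pool to 1.33 without the first. The isotype pools stood apart for Lgals3bp (means 0.429 and 0.199), Lgals7 (0.983 and 2.03) and Lgals1 (1.45 and 2.31). The sign of the difference turned with them: Lgals1 had a log2 fold change of -0.054 (SE 0.193), -0.42 without the first isotype pool and 0.47 without the second, and Lgals7 had 0.25 (SE 0.329), -0.24 and 1.03. Lgals8 was level in both groups, at 0.342 ± 0.0572 UMIs per 10000 in isotype (n = 6) and 0.315 ± 0.0338 in B20-4.1.1 tumors (n = 9). Lgals4 rested on 4 to 42 UMIs per tumor, with a log2 fold change of 0.46 (SE 0.247).

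In the fit over all genes 2 of the 7 members, Lgals3 and Lgals9, were among the genes called, beside 14.2% of all genes (1748 of 12269), and the groups did not overlap for the same 2 members, beside 2.79% of all genes. Nothing is read from either count, since this contrast chose the members. The member median log2 fold change was 0.46 and that of all genes -0.0046. The number of genes called depended on the isotype pools, at 397 without the first and 5379 without the second, and voom with a random pool effect gave 42. Epithelial-like cells had a median depth of 8622 UMIs for isotype and 9607 for B20-4.1.1. The plot of epithelial levels by pool shows that tumors of 1 pool often lay closer to each other than to the other pool of their group.

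**Figure D4:**
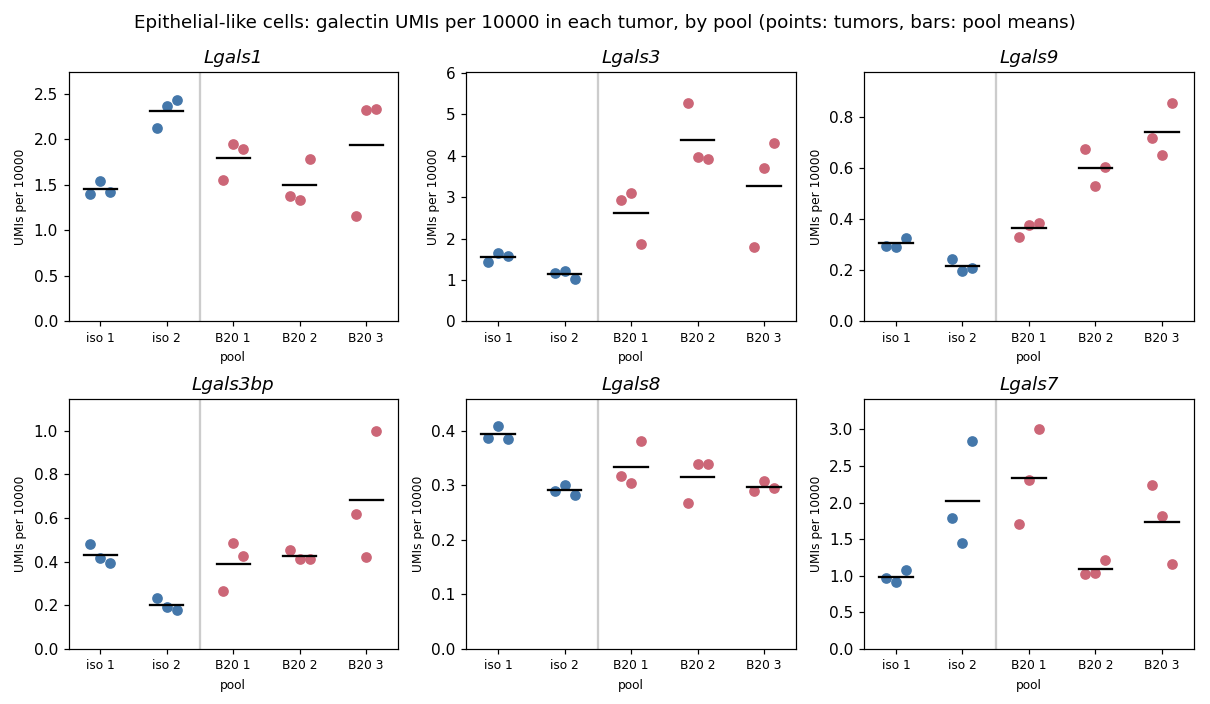
Level in epithelial-like cells in UMIs per 10000 gene UMIs (y axis, linear from 0) for each tumor (points), grouped by pool (iso, isotype; B20, B20-4.1.1), with pool means as bars. All 9 B20-4.1.1 tumors lie above all 6 isotype tumors for Lgals3 and Lgals9, and the 2 isotype pools do not overlap for any of the 6 genes drawn.

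In macrophage-like cells the Lgals3 level was 8.33 to 16.8 UMIs per 10000 in isotype tumors (median 11.1) and 10.1 to 23.5 in B20-4.1.1 tumors (median 15.9). The groups overlapped, and the log2 fold change was 0.59 (SE 0.188), with 0.31 without the first isotype pool and 0.94 without the second. Lgals1 had a log2 fold change of 0.25 (SE 0.203), which was -0.14 and 0.80 under the same choices. Lgals9 was close in both groups (1.62 ± 0.333 and 1.67 ± 0.213 UMIs per 10000), as was Lgals8 (0.451 ± 0.0831 and 0.414 ± 0.119). Lgals3bp was 1.34 ± 0.506 and 1.17 ± 0.499. Of 5 members past the filter 0 were called by edgeR, beside 0.0148% of all genes (1 of 6771, with 665 at an unadjusted p under 0.05, and 41 called by DESeq2). The second isotype pool decided this count, which was 568 without it.

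In T-like cells Lgals3 differed more among B20-4.1.1 tumors than between the groups. Its level was 6.27 to 11.6 UMIs per 10000 in the 6 isotype tumors (median 8.67) and 0.569 to 14 in the 9 B20-4.1.1 tumors (median 7.11). The 3 tumors rich in T-like cells held 1.00, 0.569 and 0.658 UMIs per 10000 and the other 6 B20-4.1.1 tumors at least 5.06. The log2 fold change of B20-4.1.1 over isotype was -0.45 (SE 0.603), 0.093 when those 3 were left out and -1.21 when the third B20-4.1.1 pool was. Lgals3bp was also lowest in those 3 tumors, at 0.183 to 0.356 UMIs per 10000 (log2 fold change over all tumors -0.35, and 0.074 without the 3). Lgals1 (log2 fold change -0.033, SE 0.365), Lgals8 (0.18, SE 0.228) and Lgals9 (0.29, SE 0.162) overlapped between the groups. Of 5 members past the filter 0 were called by edgeR, beside 0.0% of all genes (0 of 5817, with 908 at an unadjusted p under 0.05, 34 called by DESeq2 and 0 by voom). The count was 256 without the third B20-4.1.1 pool, 28 when the second isotype pool was left out and 1 when the 3 tumors rich in T-like cells were.

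The class of T-like cells was not uniform for Lgals3. T-like cells were split by Ccr7, Lef1 and Tcf7, genes of naive T cells, a split chosen after the levels had been seen and given without a test. In 1239 T-like cells with at least 2 of the 3 genes the pooled Lgals3 level was 0.421 UMIs per 10000 and 8.07% of cells held a UMI (median depth 3861). In 748 T-like cells with none of the 3 it was 9.77 UMIs per 10000 and 80.2% (median depth 4520). In B-like cells 17.2% held a Lgals3 UMI at a median depth of 3271.5. Among T-like cells with at least 2 of the genes the share was 7.48% for B20-4.1.1 (1177 cells) and 19.4% for isotype (62 cells). Whether these UMIs are background was not tested. Lgals3bp showed a smaller pooled difference of the same sign (0.284 and 0.722 UMIs per 10000). The pooled levels of Lgals1 (2.83 and 3.42), Lgals8 (0.336 and 0.366) and Lgals9 (0.734 and 0.753) were closer on both sides. Cells with at least 2 of the genes were 10.1% of T-like cells for isotype and 58.7% for B20-4.1.1, with 64.0%, 72.2% and 78.3% in the 3 tumors rich in T-like cells and 0% to 25.2% in the other 12. In 3 tumors, those with 20 or more cells on both sides, Lgals3 was 0.153 to 0.863 UMIs per 10000 in cells with the genes and 4.86 to 7.85 in cells with none. The 2 kinds made up 47.3% (at least 2 of the genes) and 28.5% (none) of all T-like cells, and the remaining cells fell in neither. The T-like Lgals3 levels given by tumor and by group are therefore means over both kinds and these remaining cells, in unequal shares.

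**Figure D5:**
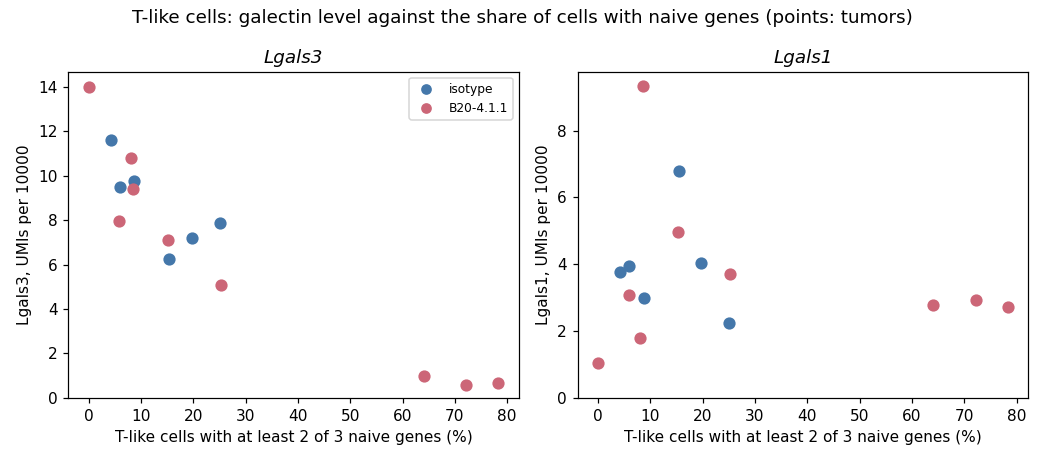
Level of Lgals3 and Lgals1 in T-like cells in UMIs per 10000 gene UMIs (y axis, linear from 0) against the percentage of T-like cells with at least 2 of 3 naive T cell genes (x axis). Each point is 1 tumor (blue isotype, red B20-4.1.1); the 3 tumors with 64.0% to 78.3% of such cells have at most 1.00 UMIs per 10000 of Lgals3, and Lgals1 shows no such order.

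Galectin function depends on the sugars and proteins they bind, so enzymes of N- and O-glycan synthesis, from branching and galactose addition to fucose and sialic acid (22 genes), and known binding partners (25 genes) were counted in the same fits. In epithelial-like cells 4 of 19 tested enzymes were higher and 2 lower in B20-4.1.1 tumors, and 2 of 16 partners were higher and 0 lower, beside the 14.2% of all genes. The list medians were -0.04 and 0.11, against -0.0046. Higher were Cd47, an inhibitor of phagocytosis (log2 fold change 0.52, adjusted p = 0.000807), Mgat4b, which adds an N-glycan branch (0.71, adjusted p = 0.00111), Bsg, a surface glycoprotein (0.65, adjusted p = 0.00165), and the sialyltransferase St3gal4 (1.34, adjusted p = 0.00272). Lower were Gcnt1, which starts O-glycan branches (-1.03, adjusted p = 0.0144), and St6gal1, whose alpha-2,6 sialic acid can mask galectin ligands (-0.72, adjusted p = 0.0398). All 6 lost the call with counts summed per pool, 5 lost it with the pool as a random block, and St3gal4, Gcnt1 and St6gal1 lost it without the first isotype pool. Tumors were the units of these tests, although no pool mixed treatments, and the lists were chosen with earlier results of these data known. The p-values are therefore given as a description only. No gene of either list passed in macrophage-like or T-like cells, where edgeR called 1 and 0 genes in all.

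Within tumors the same lists are given beside the share of all genes called. Between macrophage-like and epithelial-like cells (79.0% of all genes) the former were higher for 13 of 18 enzymes (4 lower, list median 1.13) and 12 of 18 partners (6 lower, median 0.79), with the TIM-3 gene Havcr2 (log2 fold change 8.98, adjusted p = 1.48e-22) and the VEGF co-receptor Nrp1 (8.09, adjusted p = 2.14e-26) among the higher, and Lgalsl (-4.18, adjusted p = 1.36e-17) and the mucin Muc1 (-5.45, adjusted p = 2.94e-17) lower. In T-like against epithelial-like cells (76.7% of all genes) 8 of 18 enzymes were higher and 6 lower, and 5 of 17 partners higher and 9 lower, with Spn (7.65, adjusted p = 7.58e-19) and Ptprc (7.97, adjusted p = 7.93e-16), both glycoproteins of the leukocyte surface, among the higher. Between macrophage-like and T-like cells (69.2%) 11 of 18 enzymes and 11 of 17 partners were higher in macrophage-like cells and 3 and 5 lower. In none of these 3 class comparisons is the number called read as particular to the lists. In macrophage-like against T-like cells the lysosomal glycoprotein Lamp1 was higher (2.82, adjusted p = 7.42e-21) and the T cell surface protein Cd7 lower (-8.70, adjusted p = 2.9e-16). Lamp1 was among the lower genes in T-like against epithelial-like cells (-1.32, adjusted p = 3.19e-16).

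Beside 31.3% of all genes, hypoxia-high epithelial-like cells held more transcript of 8 of 18 enzymes (2 lower) and 8 of 14 partners (0 lower), with list medians of 0.19 and 0.24 against -0.0008 over all genes. The higher genes included Cd47 (log2 fold change 0.41, adjusted p = 9.14e-07), the branching enzyme Gcnt2 (1.06, adjusted p = 3.56e-06) and the integrin chain Itga3 (0.65, adjusted p = 1.46e-05). In interferon-high cells (6.33% of all genes) 2 of 17 enzymes and 2 of 14 partners were higher and 0 and 1 lower, among them Gcnt2 (0.87, adjusted p = 0.00206). In basal keratin-high cells (9.45%) 2 of 18 enzymes and 4 of 14 partners were higher and 1 of each lower, with St3gal4 higher (0.91, adjusted p = 0.000183) except without the first pool of either group. In cycling-high cells (21.5%) 1 of 18 enzymes and 3 of 14 partners were higher and 4 and 6 lower, and of the 4 lower genes named by rule (St3gal1, Muc1, Lamp2 and Man2a1) each lost its call after thinning. In C1q-high macrophage-like cells (17.3%) 4 of 13 partners were higher and 2 lower, among them the phagocytic receptor Mertk (0.89, adjusted p = 0.00305) and Lamp1 (0.65, adjusted p = 2.73e-06) higher and the adhesion receptor Cd44 (-1.55, adjusted p = 0.000411) lower. The enzymes there numbered 1 higher of 7.

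Across the 15 tumors the epithelial-like levels of Lgals9 and Lgals3bp went together, with Pearson r = 0.742 after subtracting pool means and 0.814 without. Lgals3 and Lgals9 gave 0.823 without and 0.195 with the pool means subtracted, and Lgals3 and Lgals7 gave -0.293 and -0.711. Among 4178 genes, those most like Lgals9 after subtracting pool means were Dctn6 (0.918), Isg15 (0.912) and Xaf1 (0.894), of which the last 2 are interferon-stimulated genes with 0.962 and 0.967 before subtraction. Those most like Lgals3bp were the class I genes H2-K1 (0.922) and H2-D1 (0.918) and Wbp2 (0.904). For Lgals3 they were Homer2 (0.961), Pkig (0.950) and Nucb1 (0.947), for Lgals1 Tuba1b (0.959) and Itgav (0.945), for Lgals8 Usf2 (0.958), Tmem57 (0.953) and Bub3 (0.941), and for Lgals7 Anxa6 (0.809), Snx9 (0.802) and Rpl4 (0.794). Before subtraction r was between -0.351 and 0.222 for the genes named for Lgals3, Lgals1 and Lgals7. These are descriptions over tumors that share pools, with some tumors of few cells, and with 3 tumors per pool the highest of so many values is high by selection.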

How the data were processed

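Tumor cells were sorted as DAPI-negative before and after oligonucleotide labelling, and single-cell 3′ libraries of 5 pools were sequenced. Reads were processed by the authors in Cell Ranger 6.1.2 (per the file headers) on mm10 (per the labels), who deposited raw UMI counts per cell, 1 matrix per tumor, with no normalization. The submitters' notes also name bcl2fastq and Seurat 4.3.0. The tumor's own multiplexing oligonucleotides held 84.3% to 97.6% of those UMIs.

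The rest was computed here in Python 3.11.15 (scanpy 1.11.5) and R 4.3.3. Kept cells had 2500 UMIs or more, did not exceed the upper UMI limit of the study's methods, and were at most 20% mitochondrial. Gene UMIs per tumor were 4014509 to 23726246. A cell joined a class when at least 4 of 7 epithelial markers, or at least 3 markers of another class, were detected and only 1 class qualified, with limits set after the marker distributions had been seen. No doublet caller was run, but 755 cells that qualified for several classes and 1032 that qualified for none were left out. The names carry "-like" because they rest on transcripts.

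Counts were summed per tumor and class (at least 20 cells) or state (at least 60 cells, cells with equal shares in random order) and tested with edgeR 4.0.16 (TMM, filterByExpr, quasi-likelihood, two-sided, Benjamini-Hochberg over all genes, threshold 0.05). Class and state fits held the tumor as a block. The study's high and low hypoxia classes of tumors are not in the labels and were not compared. Alternatives were DESeq2 1.42.0, no count filter, at least 1000 UMIs per cell, cells thinned to 2500 UMIs, classes from Leiden clusters, counts per pool, each pool left out, voom (limma 3.58.1) with a random pool effect, and 1 cell in 4 instead of 1 in 3 for the state lists. Leaving out the 3 tumors rich in T-like cells was chosen after seeing the data.

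The members, the gene lists and the state splits were chosen with earlier results of these data known. By rule, the text names all 7 members. It also draws on the lists of other galectins, glycan enzymes and binding partners. Genes named from them in a comparison are among up to 4 per direction with the smallest adjusted p, and not all are named. The rule also gives the 3 genes most correlated with each member of sufficient level. For Lgals1, 1 of these genes is not reported here. The scripts were tested on simulated data. In class and state fits the p-values measure the spread between tumors of the within-tumor difference. In treatment fits they measure the spread between tumors. In both, the tumors share pools.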

Additional observations from a re-analysis of the deposited data

Results flagged for a closer look

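In 42 groups of 6 or 9 tumors, a gap test at the 95% level (Dixon), which chance passes in about 1 group in 20, marked 5 values, in 3 tumors, that stood apart from the rest of their group. The third tumor of the third B20-4.1.1 pool was the highest of its group for 2 members: Lgals1 in T-like cells (9.34 UMIs per 10000 from 256 UMIs, with the nearest tumor at 4.97) and Lgals3bp in epithelial-like cells (1.00 UMIs per 10000 from 797 UMIs, with the nearest at 0.62). The first tumor of the second isotype pool was the highest isotype tumor for Lgals7 outside the epithelium, at 0.103 UMIs per 10000 in T-like cells (8 UMIs, nearest 0.0476) and 0.0789 in macrophage-like cells (5 UMIs, nearest 0.0316). Lgals4 in T-like cells was at 0.0 in the third tumor of the first isotype pool, with 0 UMIs, where the nearest isotype tumor was at 0.0387. The last 3 rest on few UMIs.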

How the results depend on the processing

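No paired analysis was possible because the replicate numbers only name pools in accession order and pair no isotype tumor with a B20-4.1.1 tumor. Class and state comparisons lie within tumors. With counts summed per pool, 3 members passed between T-like and epithelial-like cells and 2 in interferon-high cells. With a pool left out, the members passing numbered 2 to 4 in interferon-high, 1 to 3 in basal keratin-high and 2 to 4 in cycling-high cells. With cells thinned to 2500 UMIs, 1 passed in basal keratin-high and 1 in cycling-high cells, and with at least 1000 UMIs per cell 2 passed in cycling-high cells. Within tumors the members whose direction turned had not passed the test. With hypoxia genes these were Lgals1 (log2 fold change -0.0019) and Lgals8 (-0.056) after thinning and Lgals7 with classes from clusters (0.03). With a pool left out, the log2 fold changes there ranged from -0.31 to 0.034 for Lgals7, -0.04 to 0.076 for Lgals8, -0.044 to 0.087 for Lgals9 and -0.19 to 0.016 for Lgals3bp. With basal keratin genes and a pool left out they ranged from -0.1 to 0.0075 for Lgals8 and -0.16 to 0.0054 for Lgals3bp. With cycling genes Lgals7 gave -0.24 after thinning and -0.031 with 1 cell in 4 per side, and -0.11 to 0.087 with a pool left out. With C1q genes Lgals8 gave 0.041 with at least 1000 UMIs per cell, and -0.091 to 0.028 with a pool left out. Among the single-member values, 722 were counted as the same, 34 lost a call, 21 gained one, 16 turned and 4 moved beyond the spread. In class and state comparisons, the same means an equal direction and side of the threshold. For treatment values it means a shift smaller than the SD between tumors of a group. A treatment value counted as turned only if its gene was called, so changes of sign can be among the 722. The causes were not tested, beyond the smaller number of UMIs or pools that these choices leave. Depth limits Lgals4 and, outside epithelial-like cells, Lgals7.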
